A study of Mus musculus with 8 samples.

Results

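Carbonyl reductases are enzymes that use NADPH to turn aldehydes, ketones and quinones into alcohols. The genes described here are Cbr1 and 5 relatives (Cbr2, Cbr3, Cbr4, Dcxr and Akr1a1), taken by gene symbol from a table of 34094 genes, and all 6 had a row and enough reads to be tested. Cbr1 was chosen by its measured difference between the groups, which passed the threshold over all genes, so its values in that comparison are a description and carry no test. The other 5 were chosen by their enzyme family. RNA of the CA1 field of the hippocampus, a brain region needed for spatial and contextual memory, was sequenced from C57BL/6 mice of 2 months. The groups were 4 cKO libraries, from mice with a conditional knockout of Brpf1 that the sample labels also call a knockdown, and 4 WT libraries. BRPF1 is a scaffold of histone acetyltransferase complexes, and its gene is linked to intellectual disability. What drives the knockout, which exons it removes and which mouse gave which library are not stated in the labels, and a protocol speaks of 3 pairs of mice. The p-values therefore describe only how these 8 libraries vary, and part of that variation may be technical.

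CBR1 is a cytosolic enzyme of the short-chain dehydrogenase/reductase family. It is known for reducing quinones and the aldehydes that form when membrane lipids are oxidized, and it can convert E-type prostaglandins into F-type ones. CBR3 is its closest relative. CBR2 of mice and dicarbonyl/L-xylulose reductase, the product of Dcxr, form another close pair in the same family, and CBR4 is a mitochondrial member that takes part in fatty acid synthesis there. Akr1a1 encodes aldehyde reductase, an enzyme of the separate aldo-keto reductase family that in mice makes the gulonate used for vitamin C.

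The 5 short-chain members share a catalytic tyrosine and, 4 codons on, a catalytic lysine, and their coding sequences around that site show how near the members are to one another. The stretches below come from the GENCODE M21 transcripts (GRCm38) with the tyrosine and lysine codons in capitals. Codons 194 and 198 carry it in Cbr1 and Cbr3, codons 149 and 153 in Cbr2 and Dcxr, and codons 147 and 151 in Cbr4.
Cbr1: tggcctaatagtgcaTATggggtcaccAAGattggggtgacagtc
Cbr3: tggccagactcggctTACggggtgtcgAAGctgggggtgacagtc
Cbr2: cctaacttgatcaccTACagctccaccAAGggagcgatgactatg
Dcxr: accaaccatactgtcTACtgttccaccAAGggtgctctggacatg
Cbr4: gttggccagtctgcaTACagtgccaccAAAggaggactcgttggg
Over the whole coding sequence Cbr1 and Cbr3 were identical at 77.9% of 832 aligned bases, and Cbr2 and Dcxr at 72.2% of 720. The other pairs among these 5 genes lay between 59.9% and 66.1%. Both close pairs are also neighbours in the genome. Cbr1 and Cbr3 lie on the plus strand of mouse chromosome 16 (GRCm38) at chr16:93605853-93610505 and chr16:93683215-93690990, with 72.7 kb between them. Dcxr and Cbr2 lie on the minus strand of chromosome 11 at chr11:120725399-120727281 and chr11:120729489-120732114, 2.21 kb apart. Cbr4 is at chr8:61487734-61506694 and Akr1a1 at chr4:116636510-116651680. No other gene of that annotation overlaps any of the 6.

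Whether reads of one member could be counted for another was checked on the transcript sequences. Of 1138 stretches of 100 bases in the main Cbr1 transcript, 0 occur in a transcript of another gene, and at 50 bases 49 of 1188 do, in Cbr3 or in Gm5678. Cbr3, Cbr4, Dcxr and Akr1a1 also shared 0 stretches of 100 bases with other genes. Cbr2 shared 71 of 1011, all with Gm11771, which has no row in the table, so the reads of Cbr2 are the least certain of the 6. The read length is not stated in the labels.

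Reads on genes ranged from 40330226 to 46559795 in cKO libraries and from 42346644 to 49897832 in WT libraries. Levels are given as normalized reads, each library's reads over the size factor that the authors used for it. The groups did not overlap in the number of genes with a read, 25476 to 26587 in cKO and 26634 to 27549 in WT, and the part of this in the results below was not tested. The targeted gene Brpf1 had 848, 1032, 897 and 1004 normalized reads in cKO libraries, against 1358, 1451, 1473 and 1380.1 in WT libraries. Every cKO library was below every WT library, as was the case at 2.35% of all genes tested, and the cKO mean was 66.8% of the WT mean. Fold changes come from limma, a linear model fitted to log2(normalized reads + 1) of 26135 genes at once, with adjusted p by Benjamini-Hochberg over all of them.

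Cbr1 (ENSMUSG00000051483) was lower in cKO CA1. It had 805, 791, 871 and 900.1 normalized reads in the 4 cKO libraries, against 1424, 1641, 1477 and 1570.1 in the 4 WT libraries. The groups lay far apart, with the highest cKO library well below the lowest WT library and a spread of about the same relative size in both. The means were 842 ± 52.0 in cKO and 1528.0 ± 96.3 in WT (SD, n = 4 each), or 55.1% of the WT level, with a coefficient of variation of 6.18% in cKO and 6.30% in WT. The log2 fold change was −0.86 (SE 0.086, 95% interval −1.05 to −0.67). Cbr1 is the 1 member of 6 that passed the adjusted threshold of 0.05. That threshold was passed by 0.0191% of all genes tested, 0.0115% lower and 0.00765% higher in cKO, and by 0.0153% with limma-voom on reads. That is the value by which Cbr1 was chosen, so nothing is read from the count. Its call was lost without WT replicate 4 (limma adjusted p = 0.0552). The authors' deposited table gives it an FDR of 1.59e-20, and there 0.657% of genes are under 0.05. That FDR comes from the same libraries, so it too is a description. In RNA from whole tissue, fewer cells of a type and less RNA per cell cannot be told apart.

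**Figure D1:**
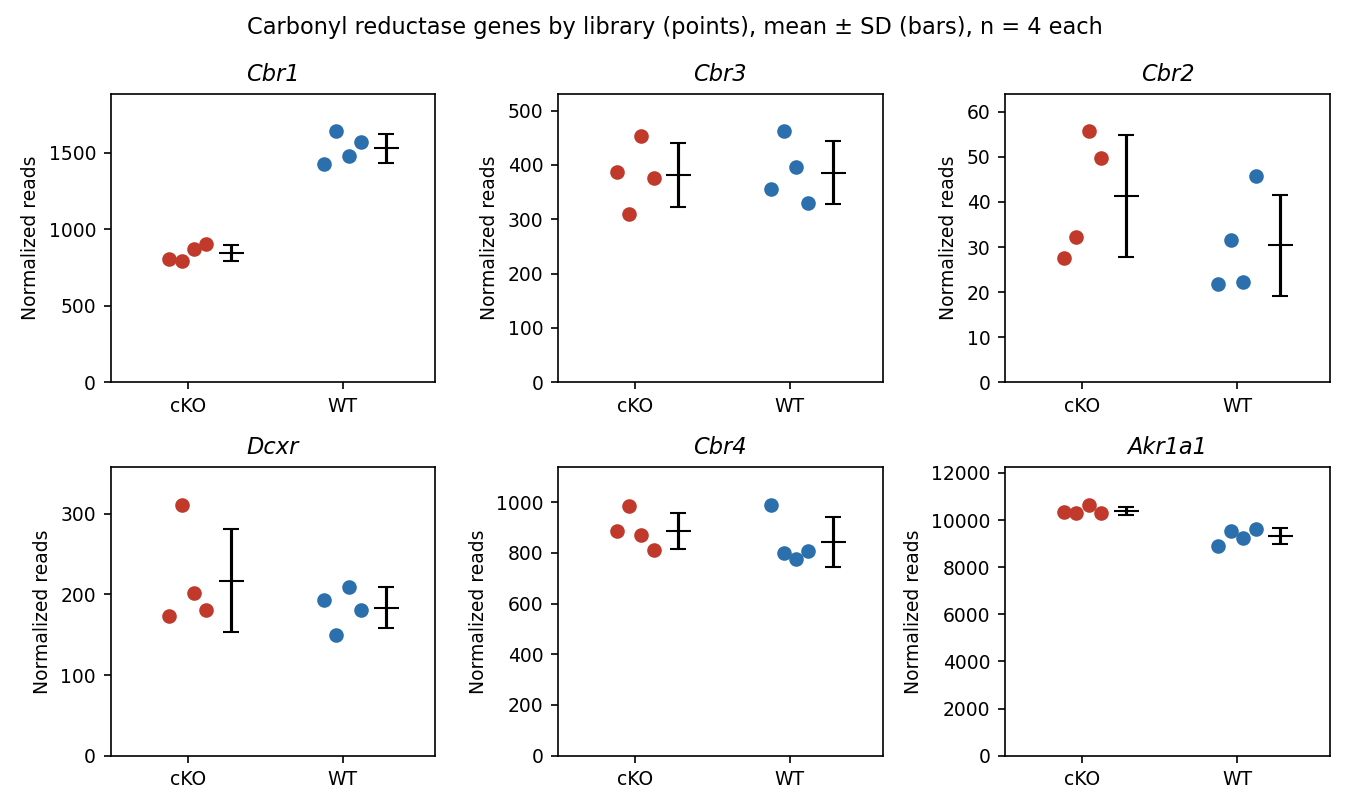
Normalized reads (vertical axis, starting at 0) of the 6 carbonyl reductase genes, with cKO left of WT; points are libraries and black bars the mean ± SD (n = 4 each). For Cbr1 the 4 cKO points, up to 900.1, lie under the 4 WT points, from 1424, and for Akr1a1 they lie slightly above them, while the groups overlap for Cbr2, Cbr3, Cbr4 and Dcxr.

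Cbr3 (ENSMUSG00000022947), the paralog further along the same chromosome, did not show this difference. It had 386, 309, 453 and 375 normalized reads in cKO libraries, against 356, 462, 396 and 329.9 in WT libraries. The ranges of the groups almost coincide. The log2 fold change was −0.020 (SE 0.15, limma adjusted p = 0.986), and the 95% interval of the fold ran from 0.780 to 1.25. The ratio of Cbr1 to Cbr3 reads was 2.08, 2.56, 1.92 and 2.40 in cKO libraries, against 4.003, 3.55, 3.73 and 4.76 in WT libraries. Since Cbr1 was chosen for its own difference, this ratio is given without a test.

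Between Cbr1 and Cbr3 lies Gm5678, a copy of Cbr1 that RefSeq lists as a pseudogene and GENCODE M21 as protein-coding, 17.6 kb from the end of Cbr1. Its reading frame is identical to that of Cbr1 at 90.4% of 834 bases. It held 5, 0, 0 and 9 reads in cKO libraries, against 0, 0, 5 and 0 in WT libraries, too few to be tested. Over the same libraries Cbr1 held from 761 to 940 reads in cKO and from 1369 to 1818 in WT. The copy held far fewer reads than Cbr1 in every library. Whether reads of Cbr1 were lost or counted elsewhere was not tested.

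On the other side of Cbr1, Setd4, a SET domain gene on the opposite strand, lies 1.79 kb before the GENCODE span of Cbr1. It had 302 ± 48.9 normalized reads in cKO and 374 ± 86.8 in WT (SD, n = 4 each), with overlapping groups. Its log2 fold change of −0.29 (SE 0.19) did not pass limma (adjusted p = 0.673). Dopey2, the furthest of the 5 annotated genes on the Cbr3 side, had 2936 ± 281 normalized reads in cKO and 2975 ± 429.6 in WT, a log2 fold change of −0.013 (SE 0.11, limma adjusted p = 0.986). Of the 10 annotated genes nearest to Cbr1, 5 on each side, 4 have a row in the table. Of the 3 with enough reads to be tested (Setd4, Cbr3 and Dopey2), 0 had an unadjusted limma p under 0.05.

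The sequences just before the start sites of Cbr1 and Cbr3 are shown because these neighbours are alike in their coding bases and unlike in their values, and that of Akr1a1 because it is the other member whose groups did not overlap. Each runs from 250 bases before the RefSeq start site (GRCm38.p6) to 50 bases after it, 5′ to 3′ on the gene's strand. The RefSeq start of Cbr1, where its main coding transcript begins, lies inside the GENCODE span given above, which opens further upstream with non-coding transcripts.
Cbr1 (chr16:93607587-93607886, plus strand): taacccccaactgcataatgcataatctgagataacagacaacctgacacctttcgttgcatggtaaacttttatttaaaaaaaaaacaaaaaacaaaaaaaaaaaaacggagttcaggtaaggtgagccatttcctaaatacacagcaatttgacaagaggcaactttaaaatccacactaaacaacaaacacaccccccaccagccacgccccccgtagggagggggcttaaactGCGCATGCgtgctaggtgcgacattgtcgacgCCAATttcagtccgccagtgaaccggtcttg
Cbr3 (chr16:93682969-93683268, plus strand): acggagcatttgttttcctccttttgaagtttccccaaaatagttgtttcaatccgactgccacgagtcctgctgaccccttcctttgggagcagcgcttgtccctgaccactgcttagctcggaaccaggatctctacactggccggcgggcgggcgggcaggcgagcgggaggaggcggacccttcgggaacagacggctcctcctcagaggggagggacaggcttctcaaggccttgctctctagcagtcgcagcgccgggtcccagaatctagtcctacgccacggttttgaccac
Akr1a1 (chr4:116651625-116651924, minus strand): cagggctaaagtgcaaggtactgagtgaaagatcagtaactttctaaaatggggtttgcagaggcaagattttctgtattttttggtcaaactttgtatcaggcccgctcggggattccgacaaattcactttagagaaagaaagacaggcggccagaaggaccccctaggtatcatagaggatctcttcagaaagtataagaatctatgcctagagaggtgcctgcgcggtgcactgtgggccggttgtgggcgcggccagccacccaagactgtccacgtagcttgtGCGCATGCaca
Capitals mark matches to any of 5 short motifs, searched on both strands and chosen after the sequences had been seen. GCGCATGC, the core bound by nuclear respiratory factor NRF1, begins 13 bases before the start site in Cbr1 and at base 40 after it in Akr1a1, and 2.71% of 32851 promoters of the same length hold it. CCAAT, found in Cbr1 at base 20 after the start, is in 37.4% of them. TGACNNNGC, the core of the antioxidant response element that the factor NRF2 binds, CACGTG and TGACGT were not among the letters of these 3 windows, and 12.4%, 7.15% and 7.51% of promoters hold them. Cbr3 had 19 CpG steps and 60.0% G and C, Cbr1 had 11 and 44.0%, and the median promoter had 7 and 52.7%.

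Cbr2 (ENSMUSG00000025150), a reductase known from mouse lung, was the member with the fewest reads. It had 27.5, 32.1, 55.7 and 49.8 normalized reads in cKO libraries, against 21.8, 31.5, 22.3 and 45.8 in WT libraries. Both groups held libraries near 30 and above 45, so they overlap widely. The log2 fold change was 0.44 (SE 0.35, limma adjusted p = 0.731), with a 95% interval of the fold from 0.793 to 2.31. In the brain Cbr2 is known as a marker of the macrophages of vessels and meninges. The 10 markers of those cells summed to 729, 1252, 638 and 1112 normalized reads in cKO libraries, against 628, 816, 816 and 1037 in WT libraries. WT replicate 4 and cKO replicate 4 were high in both measures, cKO replicate 3 was highest in Cbr2 and lowest in the cKO marker sums, and the part of these cells in the Cbr2 value was not tested.

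Dcxr (ENSMUSG00000039450) encodes the reductase of dicarbonyls such as diacetyl and of xylulose in the glucuronate pathway. It had 174, 311, 202.1 and 181 normalized reads in cKO libraries, against 193, 149, 209 and 180.5 in WT libraries. cKO replicate 2 stood above the other 7 libraries, which ran from 149 to 209. The log2 fold change was 0.21 (SE 0.21, limma adjusted p = 0.791), and it was 0.027 without cKO replicate 2. The 95% interval of the fold was 0.845 to 1.59.

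Cbr4 (ENSMUSG00000031641) encodes the mitochondrial member, which in humans pairs with HSD17B8 to carry out a reduction step of fatty acid synthesis. It had 885, 984, 869.7 and 810.1 normalized reads in cKO libraries, against 990.4, 799, 777 and 806 in WT libraries. WT replicate 1 was the highest of all 8 libraries and the other 3 WT libraries were the lowest. The log2 fold change was 0.077 (SE 0.11, limma adjusted p = 0.870), with a 95% interval of the fold from 0.895 to 1.24, and it was 0.16 without WT replicate 1.

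Akr1a1 (ENSMUSG00000028692) was the most abundant member and the other one whose groups did not overlap. It had 10341, 10284, 10652 and 10285 normalized reads in cKO libraries, against 8897, 9542, 9256 and 9633 in WT libraries. All 4 cKO libraries were above all 4 WT libraries, by a small margin. The means were 10391 ± 176 in cKO and 9332 ± 332 in WT (SD, n = 4 each), or 111% of the WT level. A two-sided exact permutation test gave p = 0.0286, its minimum for groups of 4. In limma the log2 fold change came to 0.16 (SE 0.059), or a fold of 1.11 with a 95% interval from 1.02 to 1.22. The unadjusted limma p was 0.0245, and 8.67% of all genes had one under 0.05, 4.07% higher and 4.6% lower in cKO. The adjusted limma p was 0.520, so Akr1a1 did not pass over all genes. With quantile normalization the log2 fold change was 0.092 (limma unadjusted p = 0.183). The groups did not overlap at 2 of the 6 members, Cbr1 and Akr1a1, and at 4.92% of all genes tested. Cbr1 was chosen by its difference in this comparison, so its part of that count is not read. For a gene above, as Akr1a1 is, the share was 2.57%, and for a gene below it was 2.35%. The authors' deposited table gives an FDR of 0.144 for Akr1a1 and from 0.907 to 0.995 for Cbr2, Cbr3, Cbr4 and Dcxr.

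Per kilobase of the longest protein-coding transcript, Akr1a1 stood first, with 7317 ± 124 normalized reads per kb in cKO and 6572 ± 234 in WT (SD, n = 4 each). Cbr1 came next, with 681 ± 42.1 in cKO and 1235 ± 77.8 in WT. Cbr3 followed at 326 ± 50.5 in cKO and 329.9 ± 49.3 in WT, then Dcxr at 243 ± 71.7 and 205 ± 28.5, and Cbr4 at 206 ± 16.7 and 196 ± 22.9. Cbr2 was last, at 37.2 ± 12.2 in cKO and 27.3 ± 10.1 in WT. Dcxr and Cbr4 overlapped in both groups, and Cbr3 and Dcxr overlapped in cKO but not in WT. The other neighbours in the order did not overlap in either group. With the union of all annotated exons as the length, which for Cbr1 is 2554 bases against 1237, Cbr1 was at 329.6 ± 20.4 per kb in cKO and 598 ± 37.7 in WT, and in cKO it overlapped Cbr3.

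**Figure D2:**
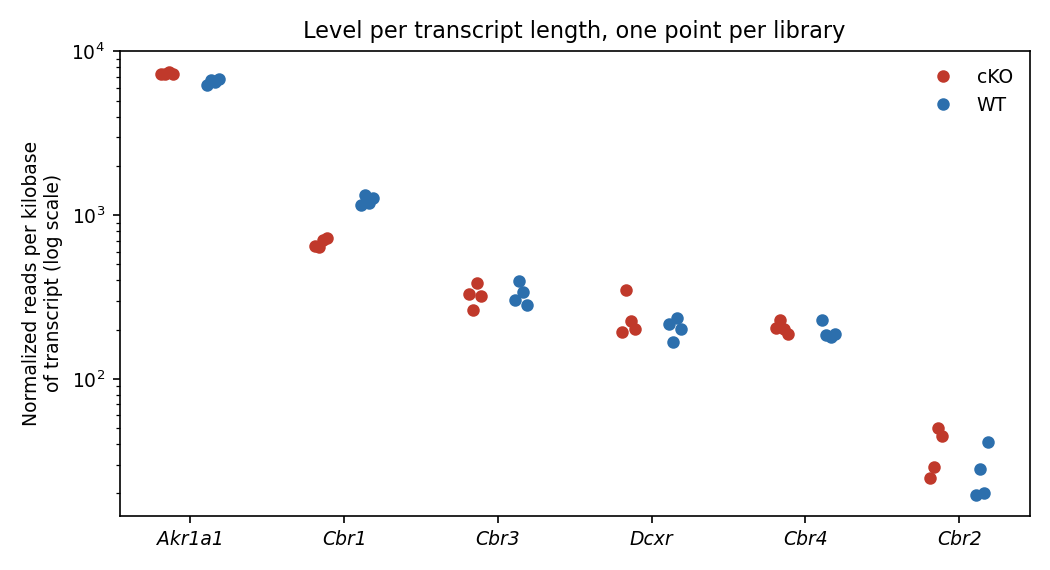
Normalized reads per kilobase of the longest protein-coding transcript (vertical log axis) for the 6 genes, one point per library, cKO in red left of WT in blue. Akr1a1 lies above all others, Cbr1 is second in both groups and nearer to Cbr3 in cKO, and Cbr2 is lowest.

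Summed per kilobase over the 6 members, the level was 8810 ± 176 in cKO and 8565 ± 292 in WT (SD, n = 4 each), with overlapping groups. Cbr1 made up 7.72 ± 0.449% of this sum in cKO and 14.4 ± 0.457% in WT, and Akr1a1 made up 83.1 ± 0.519% and 76.7 ± 0.517% (SD, n = 4 each). The shares of Cbr2, Cbr3, Cbr4 and Dcxr were each at most 3.85% on average in either group. The share of Cbr1 rests on the difference for which it was picked and is a description.

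Genes of the wider families and pathways were counted on lists. The background was a median log2 fold change of −0.018, an unadjusted limma p under 0.05 at 8.67% of the 26135 genes, and groups apart at 2.57% (higher in cKO) and 2.35% (lower). Of 10 tested aldo-keto reductases, 0 passed limma or limma-voom after adjustment and 2 had an unadjusted p under 0.05, with a median of 0.0012. Those 2 were Akr1a1 and Akr1c14, a steroid reductase with 66.8 ± 36.7 normalized reads in cKO and 165 ± 109.6 in WT, where WT replicate 1 alone held 329. Akr7a5 had 753 ± 101.3 in cKO and 666 ± 66.2 in WT. Akr1b3, aldose reductase, had a log2 fold change of 0.034 (SE 0.077). Of 34 other short-chain dehydrogenases and reductases, 0 passed and 5 had an unadjusted p under 0.05, 4 of them higher, with a median of 0.076. Groups did not overlap at 4 of the 34, all higher in cKO, against the 2.57% of all genes. Decr2, a peroxisomal dienoyl-CoA reductase, had 1489.5 ± 102.97 in cKO and 1070.1 ± 239 in WT (log2 fold change 0.50, SE 0.15, limma adjusted p = 0.496). Sdr39u1 had 1142 ± 90.9 and 916 ± 99.1, Dhrs7 had 748 ± 58.1 and 619.8 ± 29.3, and Dhrs4, a peroxisomal carbonyl reductase, had 501 ± 21.2 and 444 ± 19.3 in cKO and WT.

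For the substrates and products of CBR1, the lists held genes of prostaglandin turnover and of aldehyde and quinone removal. Over all genes tested, 8.67% had an unadjusted limma p under 0.05. Of 26 tested genes of prostaglandin synthesis, breakdown and reception, 0 passed limma or limma-voom and 1 had an unadjusted p under 0.05, with a median of 0.0033. That gene was Ptgr1, which reduces prostaglandin and leukotriene breakdown products and lipid aldehydes. It had 155, 156, 159.5 and 95.8 normalized reads in cKO libraries, against 260.1, 191, 199.9 and 202.1 in WT libraries. All cKO libraries were below all WT libraries, with a log2 fold change of −0.61 (SE 0.20, limma adjusted p = 0.496). Its relative Ptgr2 had 1625 ± 565 in cKO and 2142 ± 174 in WT, and the receptor gene Ptger1 had 85.7 ± 70.02 and 160.4 ± 33.0. Of 28 tested genes of aldehyde and quinone detoxification, 0 passed and 4 had an unadjusted p under 0.05, 2 in each direction, with a median of 0.026. Aldh1b1, a mitochondrial aldehyde dehydrogenase, had 431 ± 60.5 in cKO and 319.6 ± 25.3 in WT, with no overlap (log2 fold change 0.42, SE 0.13, limma adjusted p = 0.496). Gsta4, which joins glutathione to the lipid aldehyde hydroxynonenal, had 1695 ± 87.3 and 1455 ± 141.

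NRF2, encoded by Nfe2l2, is a transcription factor that turns on many detoxifying reductases. Of 31 tested genes of NRF2 and its targets, 0 passed limma or limma-voom, and the median was 0.063. An unadjusted limma p under 0.05 was held by 4 of the 31, all higher in cKO, against 4.07% of all genes. The autophagy receptor gene Sqstm1 had 15766 ± 756 normalized reads in cKO and 13167 ± 920.0 in WT (log2 fold change 0.26, SE 0.071, limma adjusted p = 0.496). The glutathione transferase gene Gstp1 had 2800.2 ± 228 and 2281 ± 165, and the transketolase gene Tkt had 4399 ± 236 and 3865 ± 152, both without overlap between groups. Nqo1, the quinone reductase often used to read NRF2 activity, had a log2 fold change of 0.0016 (SE 0.18), and Nfe2l2 itself had −0.090 (SE 0.12).

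Dcxr and Akr1a1 belong to the glucuronate and xylulose pathway, where 0 of 14 tested genes passed limma or limma-voom, with a median of −0.083. An unadjusted limma p under 0.05 was held by 3 of the 14, all higher in cKO, against 4.07% of all genes. Cryl1, which acts between these enzymes on gulonate, had 532, 593, 611 and 589.9 normalized reads in cKO libraries, against 465, 509.9, 525 and 482 in WT libraries. All 4 cKO libraries were above all WT libraries (log2 fold change 0.23, SE 0.099, limma adjusted p = 0.562). Ugt1a6a, a glucuronosyltransferase gene, had 74.9 ± 43.2 in cKO and 121 ± 38.5 in WT, with overlapping groups (log2 fold change −0.84, SE 0.43, limma adjusted p = 0.602). Cbr4 belongs to mitochondrial fatty acid synthesis, where 1 of 13 tested genes passed limma, lower in cKO, with a median of −0.022. That gene was Aasdhppt, which attaches the phosphopantetheine arm to carrier proteins, with 719 ± 72.6 in cKO and 1639 ± 87.1 in WT (SD, n = 4 each, limma adjusted p = 0.00260). Over all genes tested, 0.0115% passed and were lower. The list was chosen with earlier results of these data known, so nothing is read from this count. H2-Ke6, the gene of the CBR4 partner HSD17B8, had 478 ± 66.7 and 563 ± 66.4, and Mcat, which loads malonyl groups in the same pathway, had 673 ± 70.6 and 584 ± 64.8.

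**Figure D3:**
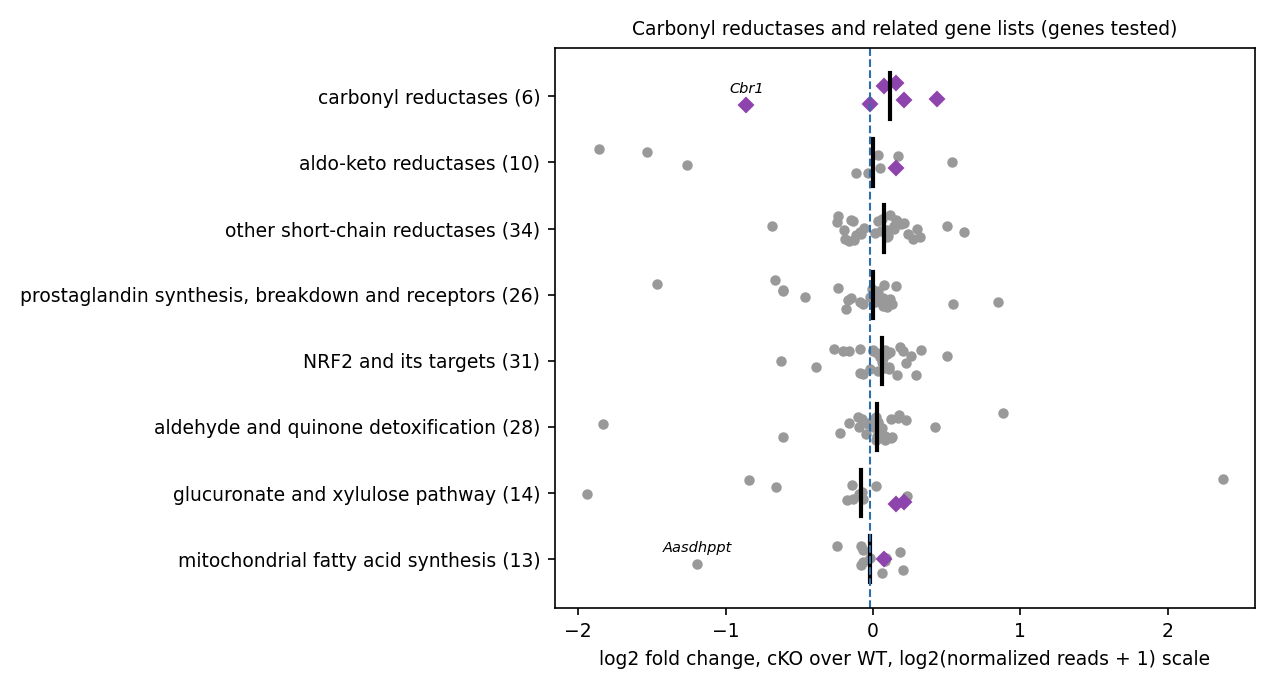
Log2 fold change, cKO over WT (horizontal axis), of every tested gene on 8 lists, with the number tested in brackets; purple diamonds are the 6 carbonyl reductase genes, grey points other genes, black bars list medians and the dashed line the median of all 26135 genes. The list medians lie between −0.083 and 0.12, near the dashed line, and the genes named by symbol, Cbr1 and Aasdhppt, are those past the adjusted threshold.

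Over the 8 libraries the genes most like Cbr1 in log2 value, among 16720 others whose log2 value averaged 5 or more, were Rffl, Dot1l, Smim5, 1810059H22Rik and Hist1h2ac, with Pearson r from 0.959 to 0.974. All 5 were lower in cKO, which follows from the choice, because Cbr1 itself differs mainly between the groups. Dot1l, a histone methyltransferase gene, had 2655 ± 109 normalized reads in cKO and 3463 ± 109.5 in WT (log2 fold change −0.38), and Smim5 had 23.8 ± 6.99 and 72.6 ± 19.6 (−1.58). With each group's mean subtracted, the nearest were Bcam, Cdh15, Nlk, Prrg2 and Cobll1, with r from 0.964 to 0.991, and no gene stood in both sets of 5. Among the members, r with Cbr1 over the 8 libraries was 0.15 for Cbr3, −0.33 for Cbr2, −0.42 for Cbr4, −0.47 for Dcxr and −0.85 for Akr1a1. With group means subtracted it was 0.54, 0.80, −0.73, −0.63 and 0.68 for the same genes. These values share the libraries and their size factors and are descriptions. Those over the 8 libraries also hold the group difference by which Cbr1 was chosen.

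**Figure D4:**
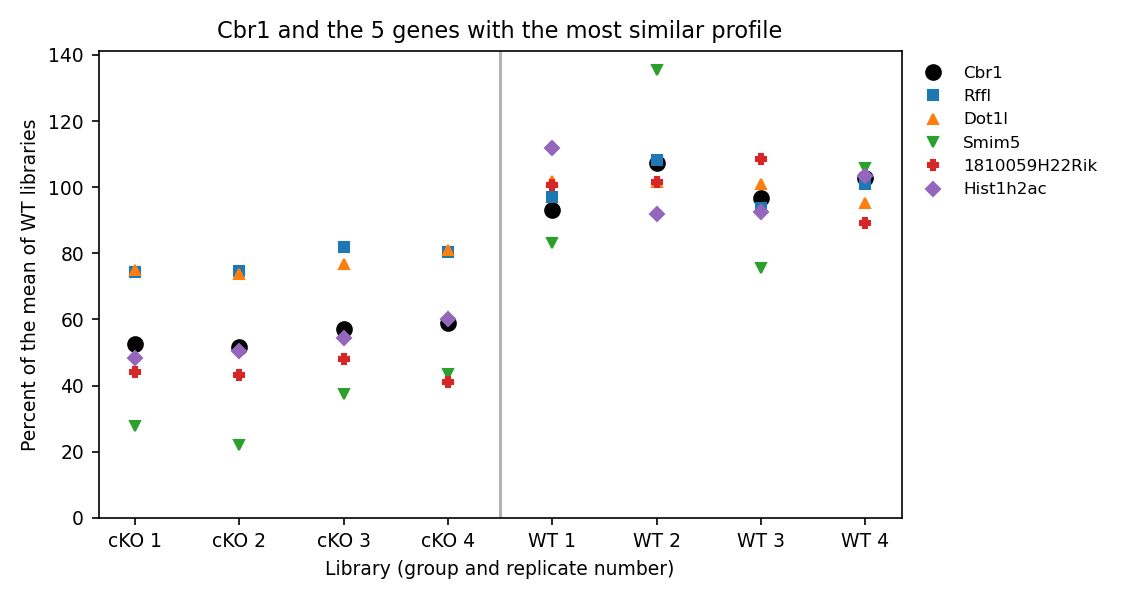
Level of Cbr1 and of the 5 genes with the most similar profile over the 8 libraries, as a percent of each gene's mean over WT libraries (vertical axis, from 0), with the 4 cKO libraries left of the 4 WT libraries. Cbr1 lies between 51.8% and 58.9% in cKO, Rffl and Dot1l between 73.8% and 82.0%, and Smim5 between 22.1% and 43.5%.

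Markers of the cell types that a CA1 sample can hold were counted on 10 lists, and every marker had reads in at least 1 library. On each list 0 markers passed limma or limma-voom after adjustment. Over all genes tested, 52.7% had a lower mean log2 value in cKO. At an unadjusted limma p under 0.05, 4.6% of all genes were lower and 4.07% higher. Oligodendrocyte markers were lower in cKO at 16 of 16 mean log2 values, 4 of them at an unadjusted limma p under 0.05, and groups were apart and lower at 12.5% of them, against 2.35% of all genes. Aspa, which breaks down N-acetylaspartate for myelin lipids, had 394, 434, 435 and 565 normalized reads in cKO libraries, against 945, 645, 790.2 and 980.2 in WT libraries. All cKO libraries were below all WT libraries, at 54.4% of the WT mean (log2 fold change −0.87, SE 0.16, limma adjusted p = 0.261), a percentage close to the 55.1% of Cbr1. Ermn, a gene of the myelin cytoskeleton, was likewise apart at 64.0% of WT, and Opalin was at 61.6% with overlapping groups. Ependymal markers were lower at 13 of 14, 6 of them at an unadjusted p under 0.05, and groups were apart and lower at 21.4% of them. These were Dnah3 (28.6 ± 9.53 in cKO and 90.3 ± 34.4 in WT), Spag17 (31.6 ± 10.4 and 64.6 ± 14.05) and Ccdc153 (208 ± 23.0 and 274 ± 53.9), and Cfap126 was at 58.3% of WT with overlap. Choroid plexus markers, from tissue next to the hippocampus, were lower at 15 of 16 with 1 at an unadjusted p under 0.05, and Aqp1, Otx2 and Cldn2 were at 39.2%, 44.2% and 40.9% of WT with overlapping groups. The part of these cell types in the values of Cbr1 and its relatives was not tested.

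The summed reads of each list overlapped between the groups on all 10 lists. Choroid plexus sums ranged from 20235 to 73473 normalized reads in cKO and from 13079 to 249086 in WT, ependymal sums from 1804 to 2431 in cKO and from 1914 to 3864 in WT, and oligodendrocyte sums from 111781 to 174855 in cKO and from 136609 to 197876 in WT. Mean log2 values were higher in cKO at 9 of 14 astrocyte, 4 of 9 CA1 pyramidal, 9 of 12 microglia and 8 of 10 border macrophage markers. They were higher at 4 of 12 endothelial, 10 of 15 mural and meningeal, and 4 of 12 CA3, CA2 and dentate markers. Over all genes tested they were higher at 47.3%. Groups were apart and higher for the astrocyte marker Aldh1l1 at 125% of WT and for the CA1 pyramidal marker Fibcd1 at 126%. These are 7.14% and 11.1% of their lists, against 2.57% of all genes. With overlapping groups stood the astrocyte genes Aldoc (114% of WT) and Agt (144%), and the CA1 genes Nov (122%) and Spink8 (87.4%). The microglia genes Csf1r, C1qa and Gpr34 were at 117%, 126% and 90.3%, and the border macrophage genes Mrc1, Cd163 and Stab1 at 126%, 168% and 105%, also with overlap. The endothelial genes Ly6c1, Itm2a and Slc2a1 were at 141%, 81.6% and 138%, and the mural genes Abcc9, Vtn and Acta2 at 121%, 117% and 76.0%, with overlap. An unadjusted limma p under 0.05 was held by 2 of 14 astrocyte, 2 of 12 microglia, 2 of 12 endothelial and 1 of 9 CA1 pyramidal markers, and by 0 on the border macrophage, mural and meningeal, and CA3, CA2 and dentate lists. The share over all genes tested was 8.67%. Lct, Iyd and Map3k15, of the CA3, CA2 and dentate list, overlapped at 77.9%, 79.9% and 77.4%.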

How the data were processed

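RNA of hippocampal CA1 was sequenced as 8 libraries, 4 cKO and 4 WT, with a stranded mRNA kit, per the labels' protocols. The submitters' processing notes name STAR, StringTie and DESeq2, with no version or role, and mouse build mm9; the strand setting of the counting is not stated. The authors deposited log2(reads / size factor + 1) for 34094 genes, and their own p-value and FDR per gene. Every deposited log2 value gave back a whole number of reads (tolerance 0.001). No 2 libraries agreed within sampling noise (smallest chi-square per degree of freedom 28.85).

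Genes with at least 1 normalized read in 4 or more libraries, 26135 in all, were fitted with limma 3.58.1 in R 4.3.3 (trend and robust options, pseudocount 1, cKO against WT), with Benjamini-Hochberg adjustment and a threshold of 0.05; the procedure was tested on simulated data. Exact permutation tests compared group means over every split of the 8 libraries into groups of 4, with Python 3.11.15 and numpy 2.4.6. Alternatives were limma-voom on the recovered reads, array weights, a replicate block, quantile normalization, no filter and one of 10 normalized reads, a pseudocount of 0.1, and each library left out in turn. Per-kilobase levels and transcript sequences use GENCODE M21, and promoters RefSeq, matched by symbol for all 6 genes; these GRCm38 coordinates are not those of the authors' build.

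The members and the gene lists were chosen with earlier results of these data known. Other genes were named by rule: per list, the genes passing the test and the 3 with the smallest p-values whose mean log2 value was at least 5, the targeted gene, the neighbours of Cbr1 and the 5 genes most similar to Cbr1. Akr1b3, Dhrs4, Nqo1, Nfe2l2 and Ccdc153 fall outside this rule and were added after their values were seen.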

Additional observations from a re-analysis of the deposited data

Results flagged for a closer look

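Of 146 groups of 4 libraries (73 named genes), 13 held a library far from the other 3, and chance alone gives about 1 in 20. Among the carbonyl reductases, cKO replicate 3 was high for Akr1a1 (10652 normalized reads) and WT replicate 1 was high for Cbr4 (990.4). WT replicate 1 was also high for Akr1c14 (329), Ptgr1 (260.1) and H2-Ke6 (663), so it gave 4 of the 13. In the cKO group replicate 2 was high for Aldh1l1 (2631) and Agt (1489), replicate 1 was high for Fibcd1 (6349.8) and low for Sqstm1 (14642), and replicate 4 was low for Ptgr1 (95.8). In the WT group replicate 3 was high for Gm5678 (4.65), and replicate 4 was high for Akr7a5 (764) and low for Dot1l (3301). All other WT libraries held 0 reads of Gm5678, so any read in a single library gives that flag. It is still counted among the 13.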

How the results depend on the processing

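The log2 fold change of Cbr1 lay between −0.89 and −0.82 over 15 alternatives, and it kept its adjusted call in 13. The exceptions were leaving out WT replicate 4 (limma adjusted p = 0.0552) and the replicate block (limma adjusted p = 0.125). All of these fits reuse the data by which Cbr1 was chosen. They describe the effect of processing and are no test of its difference. Cbr2, Cbr4, Dcxr and Akr1a1 kept their direction and passed in 0 of 15 alternatives each. Cbr3, near no difference, changed sign with quantile normalization (0.022) and array weights (0.049), and ran from −0.11 to 0.076 when single libraries were left out; the cause was not tested. Leaving out single libraries gave 0.28 to 0.65 for Cbr2, 0.026 to 0.16 for Cbr4, 0.027 to 0.31 for Dcxr and 0.13 to 0.17 for Akr1a1. The number of genes called was 5, and it was 8 with array weights, 2 with the replicate block, and from 3 (without WT replicate 4) to 7 without single libraries. Same-numbered libraries had residual correlations from −0.018 to 0.059, and 2 of 8 libraries correlated best with their own number. No pairing by number was seen, but with 4 libraries per group these correlations cannot exclude one. Cbr2 had 161 reads in cKO and 129 in WT over 4 libraries each, the fewest of the 6 genes.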
